A study of Mus musculus with 2 samples.

Results

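Microglia and macrophages were described in spatial transcriptomics (MERFISH, which images single RNA molecules in tissue) of the embryonic mouse brain, with 1 coronal section for each of 2 genotypes. The members were chosen by their transcript counts: a segmented cell was taken if it held at least 20 transcripts of the 500-gene panel, at least 3 transcripts of Csf1r, Cx3cr1 and C1qa together with at least 2 of these 3 genes present, and fewer than 2 transcripts of the endothelial genes Cldn5 and Flt1 together. This gave 2303 members among 156481 cells with at least 20 panel transcripts, 655 of 55231 in control tissue and 1648 of 101250 in KO tissue. The control embryo carried Sst-Cre and the tdTomato reporter, and the KO embryo carried both of these together with Dnmt1 loxP2, so that Dnmt1, the maintenance DNA methyltransferase, is deleted where the somatostatin promoter has driven Cre. Both sections were 10 µm thick and came from E16.5 embryos. Dnmt1 is not a gene of the panel, so its deletion could not be checked here, and the somatostatin lineage that carries the deletion does not include microglia or macrophages.

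Microglia are the resident macrophages of the brain parenchyma. They descend from yolk sac progenitors that enter the embryonic brain early and then multiply there. Other macrophages of the same early origin stay at its borders, in the meninges, around vessels and in the choroid plexus. Csf1r is the receptor for the growth factors CSF1 and IL34, on which both kinds of cell depend, Cx3cr1 is the receptor for fractalkine, and C1qa encodes a chain of the complement component C1q. All of these genes are used by microglia and by border macrophages, so the rule did not separate them. Mrc1, the mannose receptor CD206, is the usual marker of the border cells and took no part in the rule.

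The 3 selection genes chose the members, and their levels are given as a description. Csf1r made up 55524 CPM (transcripts per 1000000 panel transcripts) in control members and 29270 CPM in KO members, Cx3cr1 42087 and 27940, and C1qa 18294 and 14339. The rule asks for a fixed number of transcripts and KO members held more transcripts in all, so these levels do not compare the sections. Per member, Csf1r averaged 3.44 transcripts in control tissue and 5.01 in KO tissue. In the cells within 50 µm of a member, called neighbours from here on, the same genes stood between 283 and 1101 CPM. All 3 genes were present in 334 control members and 1038 KO members. At the edge of the rule, 127 control and 243 KO members had exactly 3 transcripts of the selection genes, whereas 173 control and 344 KO cells were left out with exactly 2. Cldn5 and Flt1 removed a further 45 cells of the control section and 381 of the KO section, and 15 and 85 of these had exactly 2 endothelial transcripts.

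A part of the molecules of the selection genes lay outside members. Of all decoded Csf1r molecules, 47.1% were in members in control tissue and 53.5% in KO tissue. Another 15.5% and 18.9% were assigned to no cell. Cx3cr1 was divided in a like manner, with 46.2% and 54.5% in members, and C1qa with 43.3% and 53.3%. Fewer cells of this kind and less RNA captured per cell cannot be told apart in these counts.

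The 2 sections differed in depth, and every comparison between them is read against this. A control cell held a median of 20 panel transcripts and a KO cell 101. A control member held a median of 51 and a KO member 150. Blank barcodes, which match no gene, amounted to 0.315% and 0.405% of the panel transcripts of members. The sections shared 0 cell identifiers. With 1 section per genotype there is no replicate, so no test between genotypes was possible. The 95% intervals given here are exact and cover counting error alone.

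Of the marker list for microglia and macrophages, 4 of 32 genes were on the panel, and Aif1, which encodes IBA1, was the one outside the rule. Aif1 stood at 666 CPM in control members and 1153 CPM in KO members, against 160 and 151 in neighbours. On the log2 scale this was a difference of 2.06 (1.40 to 2.67) and 2.94 (2.75 to 3.13), from 27 and 325 molecules. Of the border macrophage list 1 of 6 genes, Mrc1, was on the panel. The label of the members as microglia and macrophages thus rests mainly on the rule. Aif1 was seen in 4.12% of control and 16.3% of KO members, and Mrc1 in 69.5% and 64.2%. Among members of neural tissue, as defined below, Aif1 was seen in 2.86% and 15.5% and Mrc1 in 29.0% and 24.7%.

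Where the members lay was described by 2 kinds of tissue. A cell was placed in mesenchyme-rich tissue if the 7 mesenchymal genes of the panel, such as the fibroblast proteoglycan decorin (Dcn), made up at least 2% of the transcripts of all other cells within 75 µm, and in neural tissue otherwise. Segmented objects with fewer than 200 transcripts around them, 2173 in control tissue and 2757 in KO tissue with a median of 0 transcripts, lay outside the tissue, held 0 members and were given no zone. Mesenchyme-rich tissue lay along much of the outer edge of both sections and in small islands inside them. It also reached far from neural tissue: 179 control and 390 KO members lay in it more than 200 µm from the border between the zones. How much of this tissue belongs to the borders of the brain and how much lies outside them was not determined.

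Most members lay in mesenchyme-rich tissue. It held 445 control members (67.9%) and 1069 KO members (64.9%), while neural tissue held 210 and 579. In the control section the density was 98.9 members per mm2 in mesenchyme-rich tissue (89.9 to 109) and 21.5 in neural tissue (18.7 to 24.6), a 4.61-fold difference (3.90 to 5.46). In the KO section the densities were 189 (178 to 201) and 63.1 (58.1 to 68.5), a 3.0-fold difference (2.71 to 3.32). Counted per cell rather than per area, the excess was 6.75-fold and 6.82-fold. Depth also differed between the zones, with medians of 29 transcripts in mesenchyme-rich and 19 in neural control cells, and 121 and 100 in KO cells. With cells thinned to 20 transcripts and the rule applied anew, the control shares were 1.38% and 0.278%. The KO shares were 1.40% and 0.217%. With a minimum of 50 transcripts per cell the log2 excess of density in the control section was 3.60 instead of 2.2. Areas are sums of 50 µm bins, and a bin that held cells of both zones counts in both, which lowers each density somewhat. Neural cells were also split by transcripts, with no anatomical annotation, into those where pallial genes such as Tbr1 made up over 50% of the pallial and subpallial transcripts of the other cells within 75 µm, and the rest. Members made up 0.508% of the cells in such pallial-gene surroundings of the control section (0.387 to 0.654), and 0.497% of the remaining neural cells (0.421 to 0.582). The corresponding KO shares were 0.695% (0.584 to 0.821) and 0.737% (0.670 to 0.809), so the intervals overlapped in each section.

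**Figure D1:**
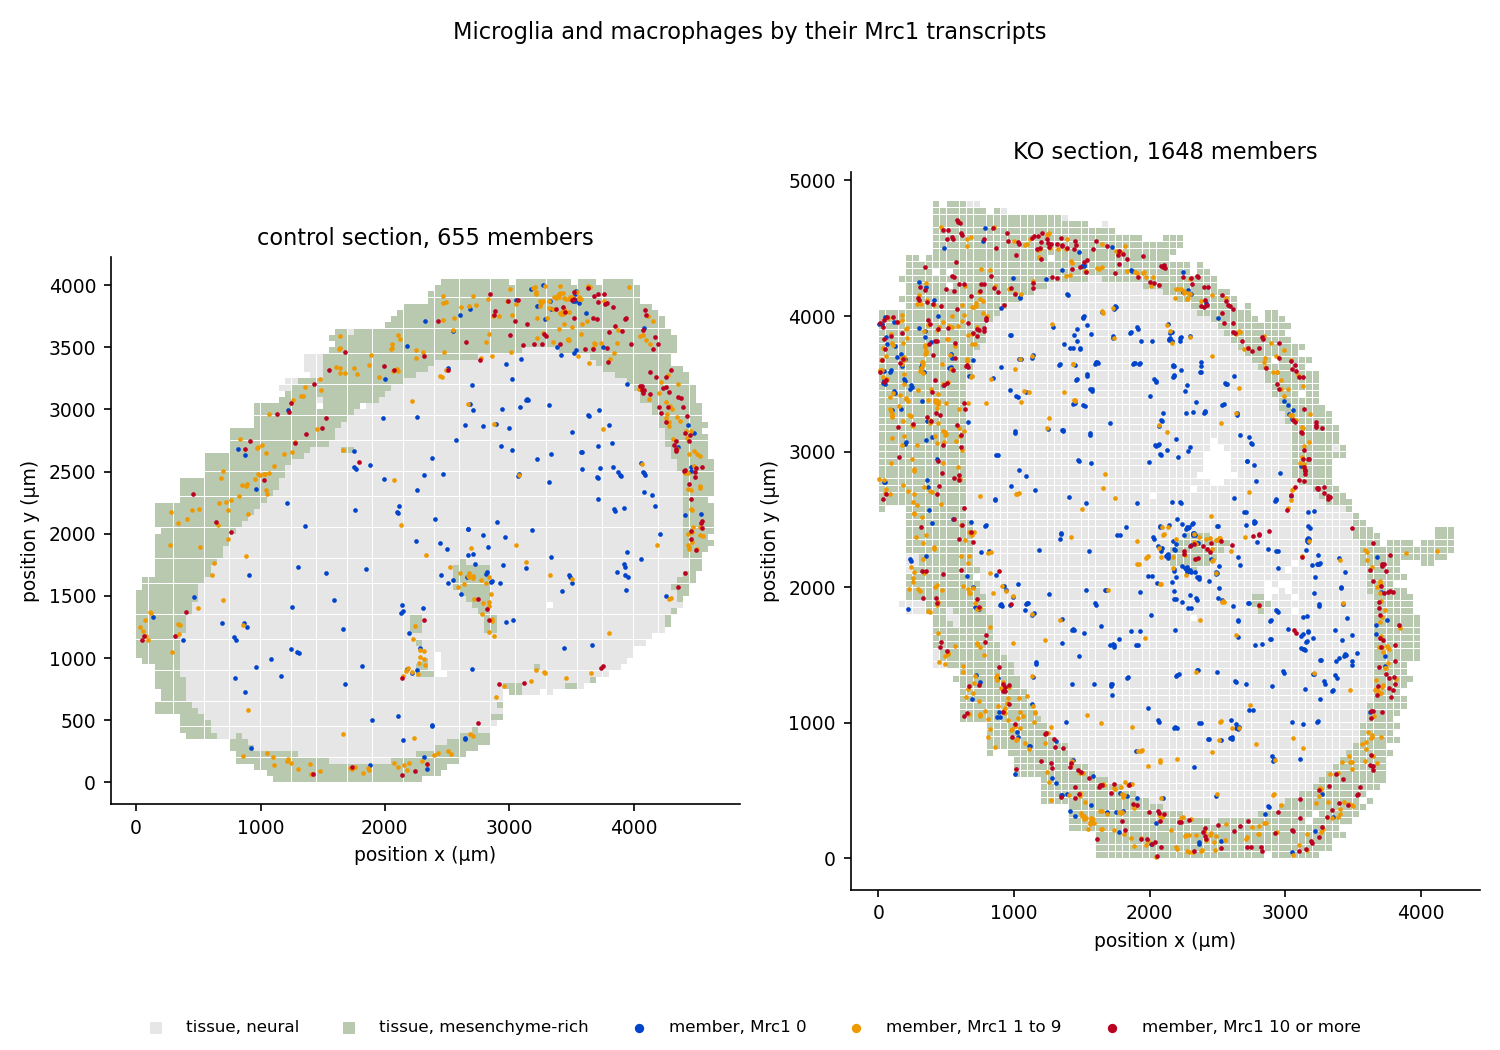
Positions of the members in the control section (left, 655 members) and the KO section (right, 1648 members), with both axes in µm. Squares are tissue bins coloured as neural or mesenchyme-rich, and points are members coloured by their Mrc1 transcripts (0, 1 to 9, 10 or more). Members with 10 or more Mrc1 transcripts lie mostly along the outer edge of both sections, with a few in the interior, and most members inside the neural tissue have 0.

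Mrc1 divided the members by place. It had the highest excess over neighbours among the genes compared, and members of mesenchyme-rich tissue held far more of it than members of neural tissue. In the control section Mrc1 reached 101182 CPM in mesenchyme-rich members (97698 to 104759) and 29370 in neural members (25952 to 33112), a 3.45-fold difference (3.04 to 3.92). In the KO section it reached 68811 (67645 to 69993) and 5794 (5305 to 6316), an 11.9-fold difference (10.9 to 13). The neural transcripts were concentrated, with 131 of 267 in 11 control members and 245 of 516 in 12 KO members, of which 1 held 53, and the intervals do not cover this. On the sides of the KO section neural members were at 3065 and 7500 CPM and mesenchyme-rich members at 70277 and 66535. On the sides of the control section these levels were 33599 and 27969 CPM and 96561 and 102457 CPM. With the zone set at 5% instead of 2% mesenchymal transcripts, the log2 difference was 0.79 instead of 1.78 in the control and 2.10 instead of 3.57 in the KO. Among neural members, 71.0% of control and 75.3% of KO cells had no Mrc1 transcript. Among mesenchyme-rich members these shares were 11.5% and 14.4%. With the members kept and their cells thinned to 20 transcripts, Mrc1 was still seen in 70.3% of mesenchyme-rich and 20.5% of neural control members, and in 54.7% and 7.94% of KO members. The same shares in neighbours, which are mostly other cell types, were 5.51% and 3.26% in control tissue and 3.79% and 1.08% in KO tissue.

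The same counts of members can also be read by Mrc1 instead of by place, which is no second result. Of members with 0 Mrc1 transcripts, 74.5% of 200 in control tissue and 73.9% of 590 in KO tissue lay in neural tissue. Of those with 10 or more, 8.21% of 134 and 2.98% of 403 did. Their median depth was 69 and 162 panel transcripts, against 39 and 135 for members without Mrc1. The highest count in a single member was 35 in control tissue and 123 in KO tissue, both in mesenchyme-rich tissue. Mrc1 was also present in cells that missed the rule. Among cells with 10 or more Mrc1 transcripts, 31 in control tissue and 125 in KO tissue were not members, and 12 and 104 of these met the selection-gene sum but held 2 or more endothelial transcripts.

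Mrc1 was also set against the distance from the border between the zones. In the control section Mrc1 in members was 99020 CPM in the 50 µm of mesenchyme-rich tissue next to the border and 63453 CPM in the first 50 µm of neural tissue. It was 50742 at 50 to 100 µm, 54230 at 100 to 200 µm, 8028 at 200 to 400 µm and 2446 beyond 400 µm (983 to 5039). In the KO section the values on either side of the border were 64731 and 7460, followed by 7201 at 50 to 100 µm, 13455 at 100 to 200 µm, 4996 at 200 to 400 µm and 2323 beyond 400 µm (1814 to 2930). From 200 µm on the intervals of both sections overlapped, whereas within 200 µm of the border they did not. These intervals count transcripts and not members, so they give no test between the sections, and these bins were not thinned to equal depth. The control bins within 200 µm hold 36, 24 and 28 members, of which 6, 3 and 2 had 10 or more Mrc1 transcripts. A zone is an average over 75 µm. The share of members among cells was lowest at 100 to 200 µm from the border in the control section, at 0.349% (0.232 to 0.503), and beyond 400 µm in the KO section, at 0.552% (0.478 to 0.634). Within neural tissue it was highest in the first 50 µm, at 1.48% and 1.06%.

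**Figure D2:**
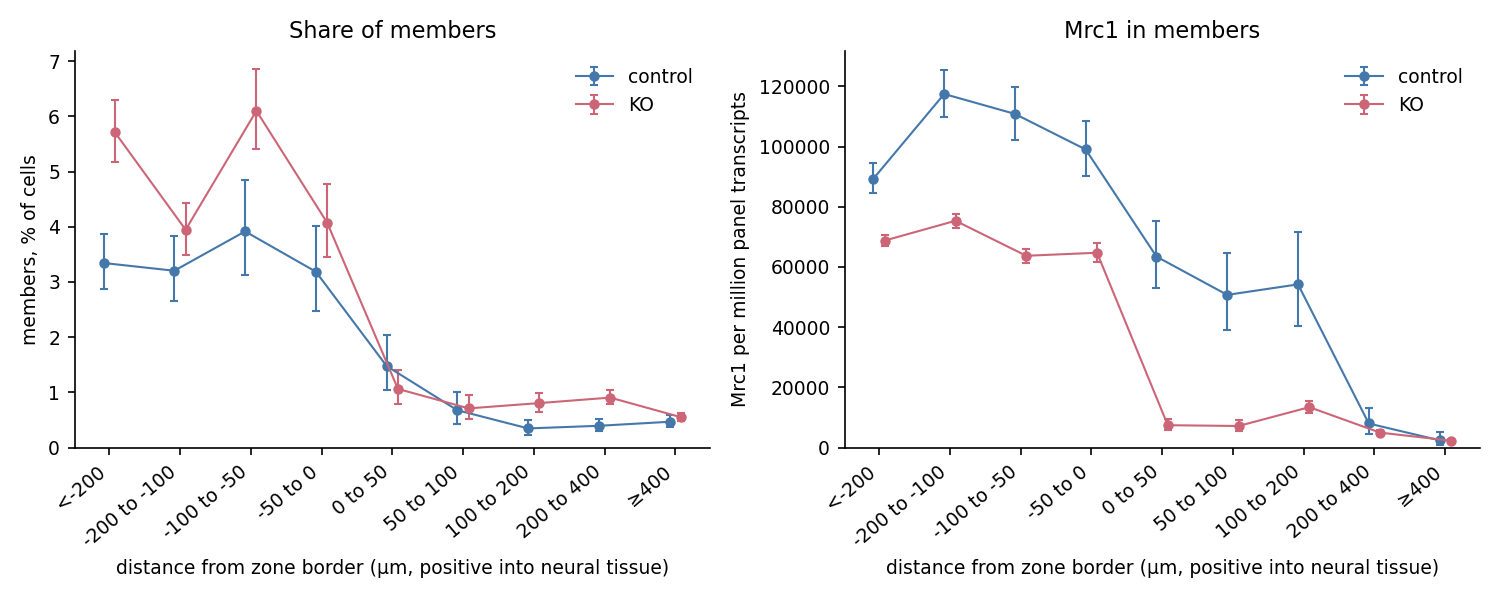
Share of members among cells with at least 20 panel transcripts (left, percent) and Mrc1 in members (right, CPM) against the distance from the zone border in µm, negative in mesenchyme-rich and positive in neural tissue, for the control and KO sections. Points are the values of a bin and bars are exact 95% counting intervals. Beyond 400 µm into neural tissue Mrc1 is 2446 CPM in control tissue and 2323 in KO tissue.

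The mix of the 3 selection genes was also compared by place, which is a description because these genes chose the cells. Cx3cr1 made up 40.3% of the selection transcripts of neural members in the control section (37.7 to 42.9) and 34.6% in mesenchyme-rich members (33.0 to 36.2). In the KO section the shares were 46.6% (45.4 to 47.8) and 35.5% (34.7 to 36.4). The control contrast came from 1 side of the section, with 40.3% and 40.6% on side 1 and 40.3% and 33.0% on side 2, and next to the border it was 38.8% in mesenchyme-rich and 36.1% in neural control members. Csf1r had the opposite order, with 44.7% in neural and 49.3% in mesenchyme-rich control members and 34.6% and 43.9% in KO members. C1qa differed less, at 14.9% and 16.1% and at 18.9% and 20.6%. Ordered by Mrc1, the share of Cx3cr1 was 42.0% in control members without Mrc1 and 29.6% in those with 10 or more transcripts, and 47.3% and 31.7% in KO members.

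Next, the remaining panel genes were compared between members and neighbours within each section. Of the 112 genes outside the rule with at least 50 transcripts in the members of each section, 6 (5.36%) were at least 2-fold higher in members in both sections, and 2 (1.79%) were at least 2-fold lower. This minimum was asked of members alone, so genes scarce in members could not be called lower. The counts of higher and lower genes are therefore no balance between the 2 directions. The higher genes were Mrc1, Rgs10, Cd74, Ednrb, Iqgap2 and Lsp1, and the lower ones included Pou3f2. The median log2 difference over the 112 genes was -0.26 in control tissue and -0.09 in KO tissue. With Mrc1 and the selection genes left out of the total, 0 genes were 2-fold lower. The 6 higher genes became 3 when all 3 selection genes were required and 17 against all other cells of the section. Requiring all 3 leaves 334 control members, so not all of the 112 genes need still hold 50 transcripts there.

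Mrc1 stood at 85086 CPM in control members against 2930 in neighbours, and at 48896 against 1470 in the KO section, log2 differences of 4.86 (4.78 to 4.94) and 5.06 (5.02 to 5.10). Rgs10, a regulator of G-protein signalling found in microglia, stood at 1800 against 510 and at 2608 against 513, or 1.82 (1.44 to 2.18) and 2.35 (2.23 to 2.46) on the log2 scale. Cd74, the invariant chain of MHC class II, stood at 1381 against 380 and at 1082 against 251, log2 differences of 1.86 (1.42 to 2.28) and 2.11 (1.92 to 2.29). Its transcripts were concentrated, with 19 of 56 in 2 control members and 140 of 305 in 9 KO members, which the intervals do not cover. Lsp1, an actin-binding protein of leukocytes, followed with 2219 against 825 and 2424 against 885. These genes were higher in members of both sections.

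Hebp1, which encodes a heme-binding protein, and Inpp4b, a phosphoinositide phosphatase, passed 2-fold in the KO section at log2 differences of 1.20 and 1.23, and lay at 0.85 and 0.79 in the control section. Nrp1, a co-receptor for semaphorins and VEGF, had values of 0.94 and 0.62. The remaining genes among the 12 highest were Pmp22, Efemp1 and Plekhg3, between 0.37 and 0.79. Pmp22 and the matrix protein Efemp1 are also made by mesenchymal cells. At the low end were genes of neurons: Tbr1, a transcription factor of glutamatergic neurons, at -1.75 and -0.83, Gad1, the GABA-synthesizing enzyme, at -1.23 and -0.93, and Pou3f2, Cnr1 and Elmod1 between -1.53 and -0.72.

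**Figure D3:**
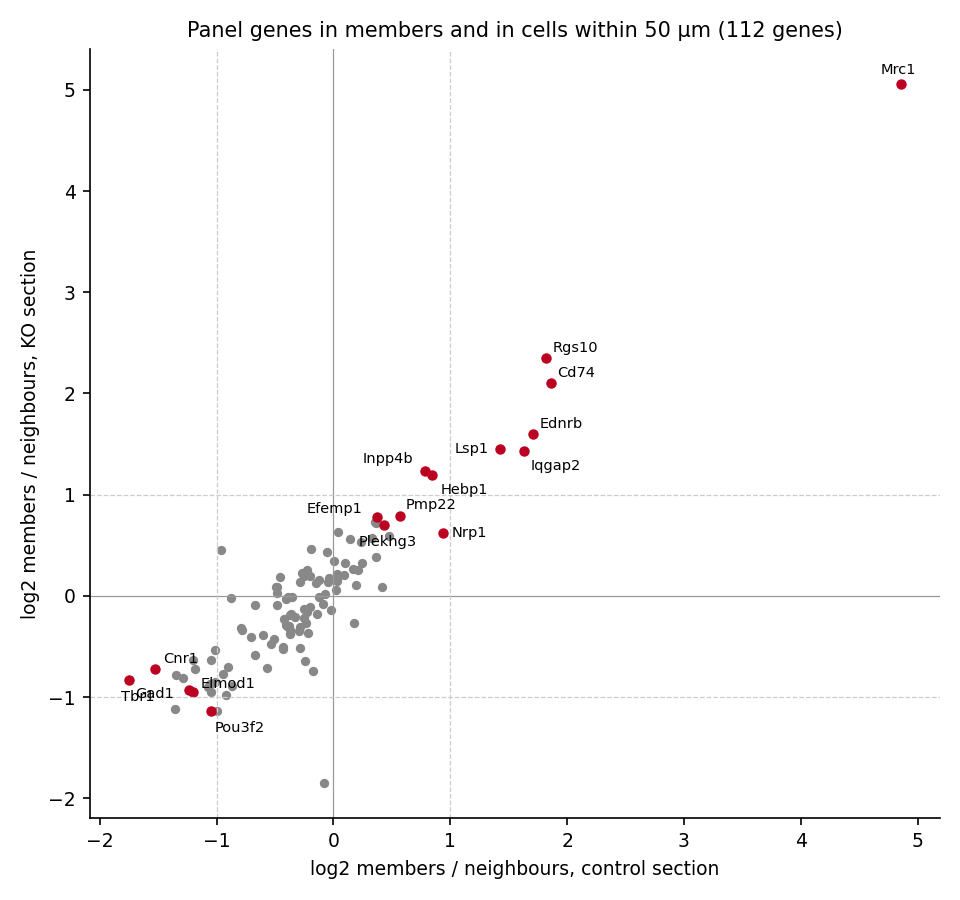
Log2 ratio of members over neighbours in the control section (horizontal) and the KO section (vertical), 1 point for each of 112 panel genes outside the rule, with dashed lines at 2-fold. Red points are the 12 highest genes by the mean of both sections and the genes of the low end named in the text. Mrc1 lies at 4.86 and 5.06, and Rgs10, Cd74, Ednrb, Iqgap2 and Lsp1 form the next group.

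Which of these genes exceeded neighbours differed by place. Ednrb, the endothelin receptor type B, and Iqgap2, a scaffold protein of the cytoskeleton, exceeded neighbours in mesenchyme-rich tissue, where the log2 differences were 2.44 and 2.45 for Ednrb and 1.75 and 1.68 for Iqgap2 in the control and KO sections. In neural tissue Ednrb, which radial glia also express, was at -0.19 and -0.04, and Iqgap2 was at 0.44 and 0.16. Lsp1, Hebp1 and Cd74 showed the reverse order of excess over neighbours, which is not an order of their levels in members. Their log2 differences in neural tissue were 3.61 and 2.98 for Lsp1, 2.37 and 2.26 for Hebp1, and 3.72 and 2.59 for Cd74, whereas in mesenchyme-rich tissue they were 0.87 and 0.78, 0.33 and 0.57, and 1.40 and 1.63. The control value of Cd74 in neural tissue rested on 11 transcripts, 7 of them in 1 member. For Lsp1 the log2 difference of mesenchyme-rich over neural tissue was 2.50 and 3.07 in neighbours and -0.25 and 0.88 in members. Rgs10 exceeded neighbours in both places, by 1.84 and 2.25 in neural and by 1.99 and 2.39 in mesenchyme-rich tissue.

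Blnk, an adaptor protein of immune cells that microglia also express, marked the neural members. It had too few control transcripts for the comparison above and was chosen after its values were seen. Blnk stood at 2530 CPM in neural control members and 2897 CPM in neural KO members, against 222 and 332 in mesenchyme-rich members. The log2 difference between the zones was -3.51 and -3.13, from 30 and 322 molecules in all. Blnk was seen in 9.52% of neural control members and 27.1% of neural KO members, and in 1.57% and 4.68% of mesenchyme-rich members. Thinned to 20 transcripts per cell, these shares were 6.67% and 8.12% of neural members and 0.899% and 0.842% of mesenchyme-rich members. The zones thus still differed. The members were chosen at full depth, so these shares do not compare the sections. Its log2 excess over neighbours in neural tissue was 4.41 and 4.94. Aif1, by contrast, was at 660 and 667 CPM in neural and mesenchyme-rich control members and 1213 and 1126 in KO members.

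Over all 112 genes, 44 (39.3%) were at least 2-fold higher in mesenchyme-rich than in neural members of both sections, and 24 (21.4%) were lower. Neighbours showed a like contrast. The median log2 difference was 0.55 and 0.80 in members and 0.52 and 1.04 in neighbours. All 7 mesenchymal genes were among the higher genes, which is no result because they set the zones through the surrounding cells. Their sum in mesenchyme-rich members was 81098 and 103590 CPM against 85494 and 98808 in neighbours. Glutamatergic neuron genes summed to 18040 and 34437 CPM in neural members and to 34069 and 42086 in neural neighbours, and GABAergic neuron genes to 53680 and 85750 against 75187 and 100476. How much of these transcripts lies in the members themselves was not tested.

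The position of molecules within members was measured as well. In mesenchyme-rich members the molecules of the selection genes lay at a median of 4.92 µm (control) and 4.82 µm (KO) from the cell centre, and Mrc1 at 4.80 and 4.81 µm. Molecules of the mesenchymal genes lay at 6.17 and 5.95 µm. In neural members the selection genes were at 4.44 and 4.31 µm, Blnk at 3.75 and 3.84 µm, and the GABAergic neuron genes at 5.06 and 4.92 µm. Both of these lists lay farther from the centre than the selection genes in both sections, as did panel genes as a whole, at 5.14 and 4.80 µm in neural and 5.79 and 5.46 µm in mesenchyme-rich members.

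Within mesenchyme-rich tissue the members were not uniform. Members with 10 or more Mrc1 transcripts were set against members with 0 to 2, and levels are given as CPM of the transcripts without Mrc1 and the selection genes. Members rich in Mrc1 held more Ednrb, with a log2 difference of 3.23 (2.55 to 3.97) in control tissue and 3.88 (3.55 to 4.23) in KO tissue. They also held more Iqgap2, by 2.69 (1.89 to 3.58) and 2.44 (2.18 to 2.72), and more Nrp1 and Pmp22, by 1.33 and 1.24 and by 1.27 and 1.14. Dcn, a gene of the fibroblasts around them, differed little, by 0.15 and 0.21. Ednrb was seen in 27.4% of mesenchyme-rich control members and 41.3% of such KO members, and thinned to 20 transcripts per cell in 11.5% and 13.1%.

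Leukocyte genes were less uniform. Ccr2, the chemokine receptor of monocytes, had 143 transcripts in KO members with 0 to 2 Mrc1 transcripts and 23 in those with 10 or more, a log2 difference of -2.34 (-3.04 to -1.70). These transcripts lay in few cells: 16 members held 149 of the 199 in mesenchyme-rich KO members, and Ccr2 was seen in 8.52% of the members low in Mrc1 and 2.81% of those rich in it. The interval covers the counting of transcripts and not the choice of these cells. In the control section the members low in Mrc1 held 15 Ccr2 transcripts and those rich in it held 0. No Ccr2 transcript lay in neural control members, and 8 of 207 lay in neural KO members. Lsp1 was lower in Mrc1-rich members, at -0.66 (-1.63 to 0.25) and -0.55 (-0.85 to -0.25), with the control interval spanning 0. Cd74 was at -2.25 (-4.22 to -0.74) in the control section, from 4 and 29 transcripts, with 12 of the 29 in 1 member. There it was seen in 3.25% of the members rich in Mrc1 and 6.94% of those low in it. In the KO section Cd74 was at 0.26 (-0.19 to 0.72), where the interval spanned 0. Rgs10 and Aif1 were higher in Mrc1-rich KO members, by 2.31 (1.95 to 2.68) and 2.23 (1.70 to 2.79), while the control intervals, from -0.70 to 1.40 and from -0.08 to 3.20, included 0.

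**Figure D4:**
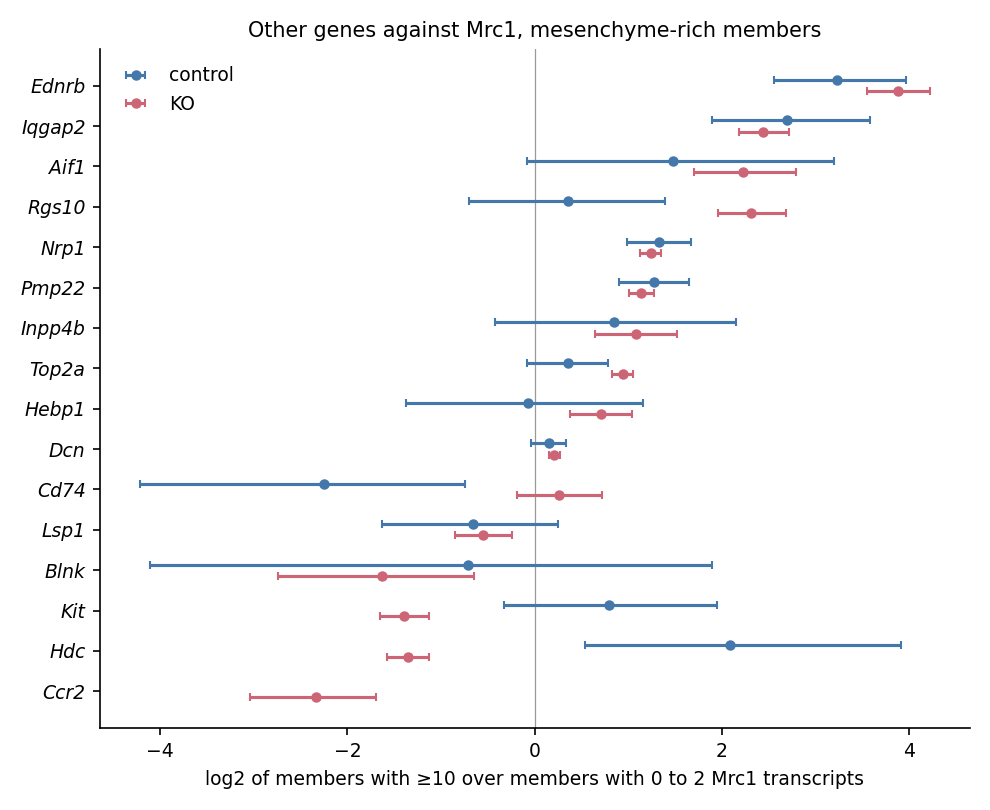
Log2 ratio of members with 10 or more over members with 0 to 2 Mrc1 transcripts, within mesenchyme-rich tissue, for 16 genes in the control and KO sections. Points are ratios of CPM without Mrc1 and the selection genes, and bars are exact 95% counting intervals. Ednrb and Iqgap2 lie to the right in both sections, and Ccr2, shown for the KO section alone, lies to the left.

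A small set of members carried genes of mast cells. Hdc, which makes histamine, and Kit, the receptor for stem cell factor, were on the list of other leukocytes together with Ccr2 and Cd74. In the KO section 28 members held at least 5 Hdc transcripts, all of them in mesenchyme-rich tissue, with a median of 44.5 and a maximum of 140. They held 93.5% of all Hdc and 57.8% of all Kit transcripts of KO members, and 23 of the 28 also had at least 5 Kit transcripts. Their medians were 19 transcripts of Kit, 1 of Csf1r, 3.5 of Cx3cr1 and 2 of Mrc1, against 3 of Csf1r and 3 of Cx3cr1 over all KO members. In the control section 2 members held at least 5 Hdc transcripts, 5 and 7, and 0 of them had 5 Kit transcripts. Over the whole sections 74 control and 196 KO segmented cells reached 5 Hdc transcripts. Between Mrc1-rich and Mrc1-low members of mesenchyme-rich tissue, Hdc was at 2.09 (0.54 to 3.92) in the control section, from 14 and 5 transcripts. In the KO section it was at -1.35 (-1.57 to -1.13), the opposite direction. Kit was at 0.80 (-0.33 to 1.94) and -1.39 (-1.66 to -1.13). The intervals count transcripts and do not cover that few KO members hold most of them. Hdc was seen in 9.4% of the KO members low in Mrc1 and 7.4% of those rich in it. For Kit these shares were 19.3% and 19.2%, so by cells the KO members differed little.

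Of the cell cycle list 2 of 3 genes were on the panel. Over all members Top2a, a topoisomerase of dividing cells, stood at 8950 CPM in control members and 8791 in neighbours, and at 19200 and 18472 in the KO section, log2 differences of 0.03 (-0.13 to 0.18) and 0.06 (0.02 to 0.10). Ccnd2, a D-type cyclin, was at -0.22 (-0.27 to -0.18) and -0.15 (-0.18 to -0.13). In neural tissue Ccnd2 was at 0.35 (0.27 to 0.43) in control members, where 1 member held 196 of the 1205 transcripts, and at 0.03 (-0.01 to 0.07) in KO members, while in mesenchyme-rich tissue it was at -0.46 (-0.51 to -0.40) and -0.39 (-0.42 to -0.36). Top2a was at -0.08 (-0.43 to 0.26) and -0.07 (-0.14 to -0.0006) in neural tissue and at 0.04 (-0.13 to 0.22) and 0.25 (0.20 to 0.30) in mesenchyme-rich tissue. In mesenchyme-rich KO members Top2a was higher in those with 10 or more Mrc1 transcripts, by 0.94 (0.83 to 1.06), and in the control section by 0.35 (-0.09 to 0.79).

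Members lay closer together in the KO section, and so did endothelial cells. Both are found by count thresholds, and the deeper KO section held more of them. Neural tissue had 210 control and 579 KO members, and 996 and 3167 endothelial cells. The spacing was not measured at equal depth, so it does not compare the genotypes. A neural member of the control section had its nearest fellow member at a median of 67.2 µm, and one of the KO section at 13.1 µm. Another member lay within 20 µm of 28.1% of neural control members and 64.9% of neural KO members. Of neural endothelial cells, those with at least 2 transcripts of Cldn5 and Flt1, 58.0% and 87.6% had another within 20 µm, at median distances of 16.1 and 10.6 µm. The nearest segmented cell of any kind was at a median of 9.52 and 8.40 µm. When members linked by centres within 20 µm were counted once, 655 control members became 538 groups and 1648 KO members became 1075. In neural tissue this gave 178 groups from 209 control members and 350 from 579 KO members, with a linked group placed in 1 zone. Of the KO groups 55 held 3 to 5 members and 2 held 6 or more. Whether such groups are neighbouring cells or parts of 1 cell was not tested.

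Members lay somewhat nearer to vessels than other cells did. In neural tissue the median distance to the nearest endothelial cell was 40.7 µm for control members and 51.9 µm for other control cells, and 31.1 and 33.7 µm in the KO section. In mesenchyme-rich tissue the medians were 28.0 and 39.4 µm in control tissue and 19.6 and 24.6 µm in KO tissue. Of neural members, 14.8% (control) and 18.3% (KO) lay within 15 µm of an endothelial cell, against 5.23% and 12.4% of other cells. The rule itself left out cells with 2 or more endothelial transcripts, and these distances depend on how many endothelial cells each section's depth reveals.

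Members were larger than their neighbours. The median volume was 1540 µm3 in control members and 1294 µm3 in neighbours, a ratio of 1.19, and 1387 and 983 µm3 in the KO section, a ratio of 1.41. Within neural tissue the ratios were 1.11 and 1.30. The summed DAPI signal differed less and without a common direction, with ratios of 0.95 (control) and 1.07 (KO) in neural and 1.05 and 1.07 in mesenchyme-rich tissue. The ratios of the polyadenylated RNA stain were 0.99 and 1.10 in neural and 1.11 and 1.12 in mesenchyme-rich tissue. The rule asks for a minimum number of transcripts, and its part in the difference of volume was not tested.

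Finally, the sections were compared with each other. The share of members was 1.19% in the control (1.10 to 1.28) and 1.63% in the KO (1.55 to 1.71). This order depended on depth. With the cells of at least 20 transcripts thinned to 20, the rule applied anew was met by 0.541% in control tissue (0.482 to 0.606) and by 0.468% in KO tissue (0.427 to 0.512), and the intervals overlapped. This left out 53302 shallower control cells and 8754 shallower KO cells, an unequal number. The thinned shares were 0.278% and 0.217% in neural tissue and 1.38% and 1.40% in mesenchyme-rich tissue. An increase of microglia or macrophages in the KO section was not detectable apart from the difference in depth. The 2 sides of the control section held 179 and 476 members, and the median depth of their cells was 16 and 24 transcripts, while the sides of the KO section held 805 and 843 members.

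Of the 112 genes, 13 (11.6%) were at least 2-fold higher in KO than in control members, and 4 (3.57%) were lower. Neighbours gave 6 (5.36%) and 4 (3.57%). The median log2 difference over the 112 genes was 0.13 in members and -0.04 in neighbours, so the 2 sets of counts start from different centres. CPM of members include the selection genes and Mrc1, whose levels differed between the sections. How much of the excess of 13 over 6 comes from this shift was not tested. The 13 higher genes became 4 of the 31 genes that could be compared in neural tissue alone, and 97 when counted per cell instead of per transcript, where the median of the 112 genes was 1.59. The gene with the largest difference was Cd24a, a surface protein of immature neurons, at 10209 CPM in KO members and 1627 in control members, a log2 difference of 2.65 (2.30 to 3.02). In neighbours it was 2.47 (2.41 to 2.53). Cnr1, Tbr1, Cxcl14, Rnd3 and Bcl11b were the next genes, from 1.27 to 1.62 in members and from 0.60 to 1.20 in neighbours. Cnr1, Tbr1 and Bcl11b are genes of neurons, and the summed transcripts of glutamatergic neurons were 5720 CPM in control members and 13629 CPM in KO members, and 15939 and 25529 CPM in neighbours.

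At the low end were Ebf3 at -1.46, Adra2a at -1.09 and Igfbp5 at -1.05, with -1.57, -1.0 and -1.34 in neighbours. Ccnd2 was at -0.79 in members and -0.86 in neighbours. Mrc1 was at -0.80 (-0.85 to -0.74) in members and -1.0 in neighbours, and after the KO section was thinned to control depth before the rule it was at 0.13 (0.05 to 0.21). Counted per cell it was at 0.67, below the median of the 112 genes on that scale. With the members kept and thinned to 20 transcripts, Mrc1 was seen in fewer KO than control members of both zones. The shares were 7.94% against 20.5% in neural and 54.7% against 70.3% in mesenchyme-rich tissue. These members were chosen at full depth, so this thinning does not put their selection on equal terms. The selection gene Csf1r was likewise seen in 43.5% of KO against 75.7% of control members in neural tissue. In mesenchyme-rich tissue it was seen in 45.4% against 70.8%. The direction of the Mrc1 difference thus changed with how depth was treated.

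Over the 112 genes the difference of members minus that of neighbours had a median of 0.18 and a 5th and 95th percentile of -0.27 and 0.62. Kit and Myh8 lay outside this range and were taken from the genes that did after their values were seen. Kit was 1.24 higher (0.88 to 1.61) in KO members and -0.18 in neighbours. Its value differed widely between the sides of the sections, as given below, which the interval does not cover. Without the members that held 5 or more Hdc transcripts Kit was at 0.09 (-0.28 to 0.48), so its difference rested on the cells rich in Hdc. Myh8, a myosin of developing skeletal muscle, was at 2564 CPM in control members and 447 in KO members, a log2 difference of -2.52 (-2.91 to -2.13), against -0.75 in neighbours. The control section held 104 Myh8 transcripts in members, all of them in mesenchyme-rich tissue. There Myh8 was at 3305 and 617 CPM in control and KO members and at 3951 and 3311 CPM in neighbours.

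**Figure D5:**
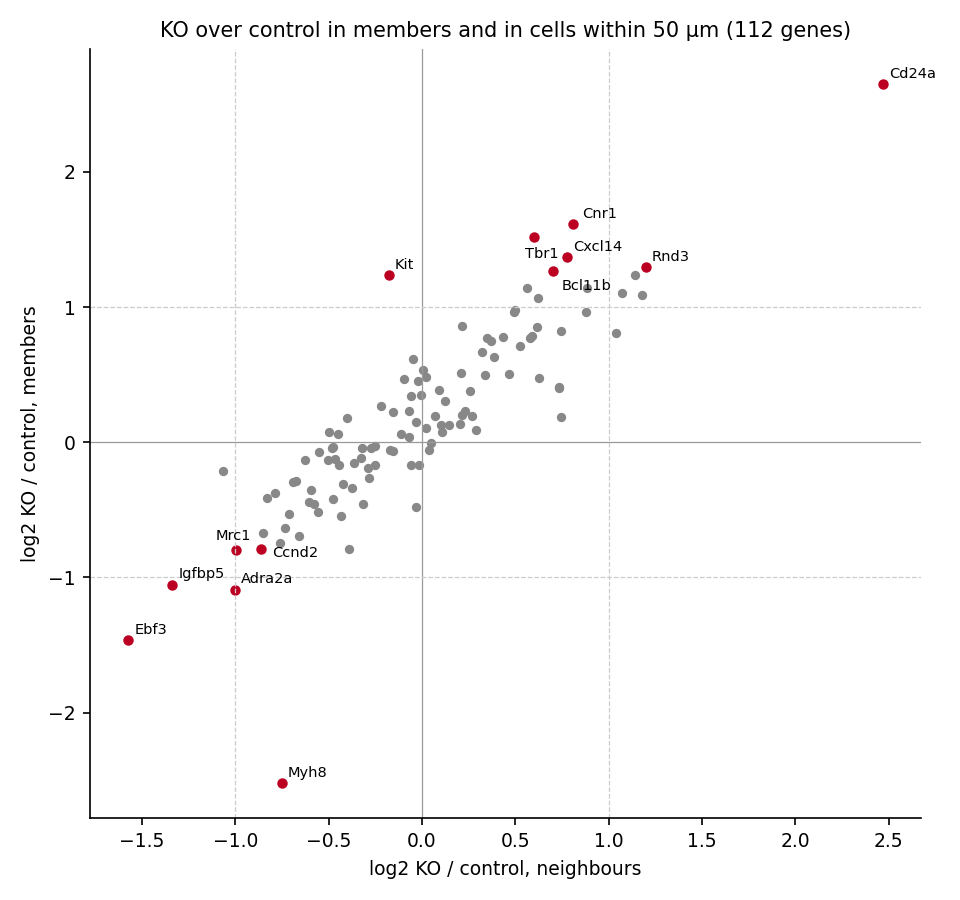
Log2 ratio of KO over control in neighbours (horizontal) and in members (vertical), 1 point for each of 112 panel genes, with dashed lines at 2-fold. Red points are the 6 highest and 6 lowest genes in members, and Kit. Most genes lie near the diagonal, Cd24a reaches 2.65 in members and 2.47 in neighbours, and Kit and Myh8 depart from their neighbours.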

How the data were processed

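Multiplexed error-robust FISH was run on a MERSCOPE instrument with a 500-gene neuronal panel and 50 blank barcodes. The authors deposited, for each section, a table of transcript counts per segmented cell, a table of cell positions, volumes (a signal of segmented size in µm3) and stain intensity (DAPI and polyadenylated RNA, summed per cell), and a list of decoded molecules. The decoder and segmentation versions are not given in the sources used here. The members and the gene lists were chosen with earlier results of these data known.

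Counts were used as deposited, blanks were left out of totals, and the members were found by the rule in the text. Levels are CPM, per 1000000 panel transcripts summed over cells. Sums have exact Poisson intervals, shares have exact binomial (Clopper-Pearson) intervals and ratios have exact conditional intervals, all at 95% and for counting error only. Genes compared held at least 50 transcripts in members of each section, with the 5 rule genes left out, and 2-fold was the threshold. Named genes were the rule genes, the panel genes of the macrophage, leukocyte and cell cycle lists, the 12 highest and 6 lowest over neighbours, the 6 highest and 6 lowest in KO over control, and examples of other lists. A gene of the low end over neighbours is not reported here. Areas are occupied 50 µm bins, and the sides of a section lie on either side of the line midway between its 2 pallial centres. Sides are numbered by image position within each section, so side 1 of both sections need not be the same hemisphere. Cells were thinned to 20 transcripts by hypergeometric draws, and the KO section to control depth by binomial draws, with fixed seeds. No doublet caller was run, and the ratio calculation was tested on simulated data. Python 3.11.15, numpy 2.4.6, scipy 1.17.1, pandas 2.3.3 and scikit-learn 1.9.0 were used.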

Additional observations from a re-analysis of the deposited data

How the results depend on the processing

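No paired analysis was possible because each genotype had 1 section, and there was no replicate to leave out or pair. Depth limits every comparison between the sections: a control cell held 26.2 panel transcripts on average and a KO cell 122. The zone threshold of 5%, the counting of linked members once, and the removal of members with 5 or more Hdc transcripts or of Mrc1 from the total were chosen after seeing the data. The cause of the changes below was not tested.

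The share of members moved with nearly every limit. For minimum totals of 10 and 50 transcripts it was 0.881% and 2.49% in the control section, with 1.77% at 50 in the KO section. At least 5 selection transcripts gave 0.751% and 1.19%, all 3 genes gave 0.605% and 1.03%, Cldn5 and Flt1 at 0 gave 1.08% and 1.45%, linked members counted once gave 0.974% and 1.06%, thinning the KO section gave 0.856%, and thinning all cells gave 0.541% and 0.468%. The log2 ratio of KO over control, 0.46 as reported, turned to -0.50 at 50 transcripts, to -0.47 with the KO section thinned and to -0.21 with all cells thinned. It was 0.86 at 10 transcripts, 0.66 with 5 selection transcripts, 0.76 with all 3 genes and 0.12 with linked members counted once.

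The excess of density in mesenchyme-rich tissue kept its direction under the alternatives run. Its log2 value, 2.2 in the control section, was 1.91 and 3.60 for minimum totals of 10 and 50 and 1.73 with the 5% zone. In the KO section, 1.58 as reported, it was 2.23 thinned, 1.78 on side 1, 1.35 with the 5% zone and 1.74 with linked members counted once. The log2 Mrc1 difference between zones, 1.78 and 3.57, was 0.79 and 2.10 with the 5% zone, 1.37 in the control section at 50 transcripts, and 3.85 and 3.41 in the KO section with Cldn5 and Flt1 at 0 and when thinned. The Cx3cr1 share was higher in neural members under the alternatives listed for it, but on side 1 of the control section it was 40.3% in neural and 40.6% in mesenchyme-rich members.

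The 6 genes higher than neighbours became 3 with all 3 selection genes, 17 against all other cells and 10 with 20 transcripts per gene. The 2 lower genes became 0 at 50 transcripts, with all 3 genes or without Mrc1 and the selection genes in the total, 1 with Cldn5 and Flt1 at 0, without the largest cells or within 25 µm, 18 against all other cells and 5 with 20 transcripts per gene. The 13 genes higher in KO members became 5 with 5 selection transcripts, 4 with all 3 genes, 29 with 20 transcripts per gene, 97 per cell, 4 in neural tissue alone, and 1 and 7 on the sides. Limits on selection genes, transcripts per gene, zone or side also change how many genes can be compared. Such counts are therefore not gains or losses of genes. The 4 lower genes became 1 with 5 selection transcripts, 2 thinned and 1 per cell. Counting per cell shifts all genes with depth, to a median of 1.59, and Igfbp5 (0.41), Adra2a (0.37) and Ebf3 (0.0035) stood above 0 but below that median. Hdc, at 2.23 in KO over control members, was at -0.12 in neural tissue. There control members held 2 of its transcripts and KO members 18, too few to give a direction. Without the members with 5 or more Hdc transcripts it was at -1.18, which is no result because Hdc itself picked them. They held 93.5% of the Hdc transcripts of KO members and 29.3% of those of control members. On side 1 of the sections Kit was at 2.98 and on side 2 at 0.37, but sides of the same number need not be the same hemisphere. Mrc1 in KO over control members, at -0.80, was at 0.13 with the KO section thinned and at 0.67 per cell.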

Other observations

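Tnf, which encodes the cytokine TNF, was not among the genes compared because control members held 3 of its transcripts. KO members held 106, or 376 CPM against 88 in neighbours, with no transcript in most cells: 22 neural members (3.80%) and 4.77% of mesenchyme-rich members had any, and 4 neural members held 26 of the 50 neural transcripts. It was chosen after its values were seen.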
